A study of Rattus norvegicus with 5 samples.

Results

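Stromal cells at day 14 were compared between 2 cultures of neonatal rat ventricular cells, both carrying TBX18, a transcription factor of the developing sinoatrial node, through an adenovirus, of which 1 also received A83-01. A cell was called stromal when S, the sum of its Col1a1, Col1a2 and Col3a1 in CPM (counts of UMIs scaled to the total of that cell), was more than 2 times M, the same sum for Tnnt2, Actc1 and Myh6. UMIs are molecular tags, each standing for a separate captured transcript. The cells were thus chosen by measured values, and levels of these 6 genes describe the choice as much as the cells. The rule took 4823 of 7618 cells with A83-01 (63.3%, 95% Clopper-Pearson interval 62.2 to 64.4) and 7027 of 8337 cells without it (84.3%, 83.5 to 85.1). Together these were 11850 of 15955 cells in both libraries and of 38019 in the series. With GFP at day 14 the rule took 4227 of 6424 cells (65.8%).

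Both cultures came from ventricles of wild-type Sprague dawley rats at age P2, kept as a mixture of myocytes and non-myocytes, so the stromal cells are those left in a dish seeded with both. The treated culture had A83-01 at 0.2 µM. Its title and description place it at day 14, whereas its treatment field gives 3 days, so the length of exposure is not settled here. Another library at day 14, from cells given a GFP adenovirus with neither TBX18 nor A83-01, is set beside them as a reference. With 1 library per group, replicate variation is unknown, and no test between groups was made. Intervals are 95% and cover counting error only, and UMIs of 1 library share its culture, its droplets and its free RNA.

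Collagen I, the main fibre of the cardiac matrix, is built from chains encoded by Col1a1 and Col1a2, and collagen III from the chain encoded by Col3a1. Fibroblasts make these fibres, and TGF-beta is the best known signal that raises them: it binds a pair of receptor kinases, and the type I receptor ALK5 phosphorylates SMAD2 and SMAD3, which enter the nucleus and bind DNA. A83-01 is a small molecule that blocks the kinase activity of ALK5 and of the related receptors ALK4 and ALK7. Tnnt2, Actc1 and Myh6 encode a troponin, an actin and a myosin heavy chain of the cardiac sarcomere.

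The promoter of Col1a2 is shown because its product is the collagen I chain that the RefSeq promoter table holds for rat. It covers 250 bases before and 50 after the start, on the plus strand of GRCr8 at chr4:33518307-33518606, written 5′ to 3′. Capitals mark CAGAC, the short element that SMAD proteins bind, which lies here on the reverse strand as GTCTG.
Col1a2: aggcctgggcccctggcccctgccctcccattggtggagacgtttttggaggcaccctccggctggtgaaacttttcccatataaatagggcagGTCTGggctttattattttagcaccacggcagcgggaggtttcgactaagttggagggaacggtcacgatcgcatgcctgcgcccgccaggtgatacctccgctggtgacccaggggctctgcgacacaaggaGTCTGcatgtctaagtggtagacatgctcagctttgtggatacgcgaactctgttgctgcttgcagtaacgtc
The element occurred at 2 places, 156 and 23 bases before the start (positions -156 and -23). It was present on either strand in 50.1% of 33469 promoters of this length. A CCAAT box (CCAAT, either strand, 37.5% of promoters) occurred at 1 place, overlapping neither element. The GC box GGGCGG (33.1% of promoters) and the AP-1 site TGANTCA (7.33%) had 0 matches on either strand of this window. These matches describe the letters only, and no readout of binding was measured here.

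Library totals at day 14 lay between 104782707 UMIs with GFP and 139442166 with A83-01. Stromal cells held 82702854 UMIs with A83-01, 114624430 with TBX18 alone and 70205788 with GFP. Their median depths were close, at 16546, 15504 and 15920 UMIs in that order. The libraries of A83-01 and TBX18 alone shared 13 barcodes. The virus features matched the labels: hTBX18 and its reporter ZsGFP had 0 UMIs in stromal cells of the GFP library, and EGFP had 0 in those of both TBX18 libraries. Other cell types could not be checked, because the tables list Ensembl IDs without names and 0 of 16894 IDs matched a reference table. Fibroblasts, smooth muscle cells, endothelial cells and leukocytes therefore cannot be told apart here by their markers.

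No marker outside the rule was available to check the stromal label, and some cells of the rule were low in collagen. With A83-01, 31 of the 4823 cells (0.643%) had S under 5000 CPM, against 81 of the 7027 cells (1.15%) with TBX18 alone. Cells low in both sums, with S under 3000 and M under 2000 CPM, passed the rule in 6 of 55 cases with A83-01 and in 68 of 87 with TBX18 alone. The median S of those 68 was 1370 CPM, close to the 967 CPM found in myocyte-type cells of the same library, in which M was more than 10 times S. Both levels follow in part from how the cells were selected, by S against M.

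**Figure D1:**
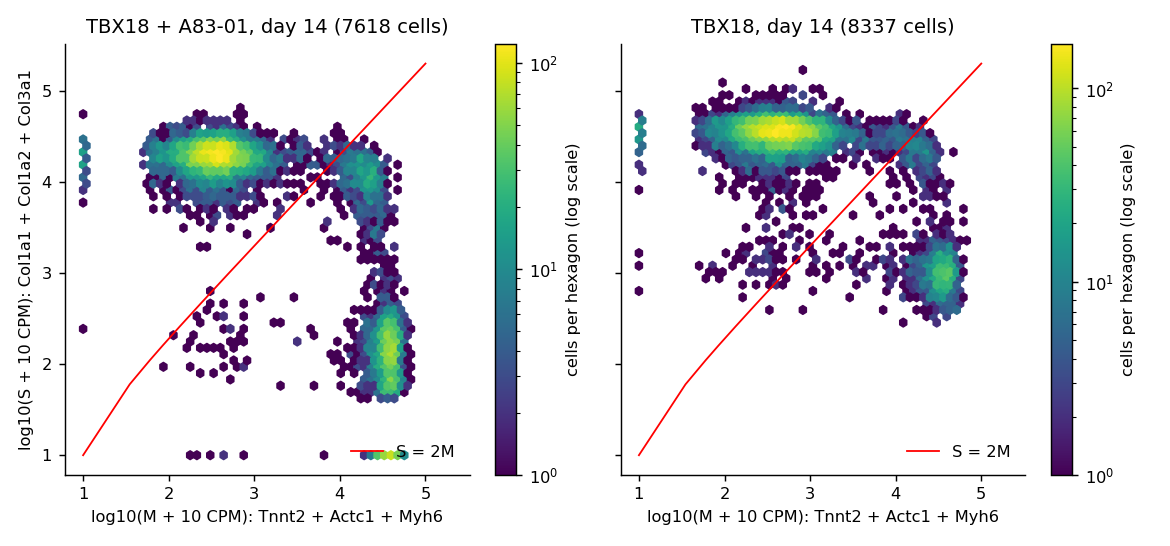
Each hexagon counts cells by M (x axis, log10 of CPM plus 10) and S (y axis, log10 of CPM plus 10) in the libraries with A83-01 (left) and TBX18 alone (right). The red line is S = 2M, and cells above it are the stromal cells: 4823 on the left and 7027 on the right. Stromal cells lie lower on the left, and so do the cells at the lower right, whose median S was 117 CPM with A83-01 and 967 CPM with TBX18 alone.

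At the edge of the rule, cells whose S was 2 to 3 times M numbered 39 with A83-01 and 63 with TBX18 alone. Their median S was 17623 and 29027 CPM and their median M 7091 and 11286 CPM. Just outside, cells with S of 1 to 2 times M numbered 113 and 131. Their median S was 16894 and 23325 CPM and their median M 12790 and 16025 CPM. Cells on both sides of the line thus carried both kinds of transcript, and few cells lay there in either library.

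All 3 collagen transcripts were lower in stromal cells of the A83-01 library than in those of the TBX18 library, and the collagen I chains differed more than collagen III. Col1a1 (ENSRNOG00000003897) was at 7625 CPM (7606 to 7644) with A83-01, 14851 CPM (14828 to 14873) with TBX18 alone and 16659 CPM (16629 to 16689) with GFP. The A83-01 library was therefore the low one, and the other two lay near each other. Col1a1 was 1.95-fold lower with A83-01 than with TBX18 alone (log2 ratio -0.96, -0.97 to -0.96).

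Col1a2 (ENSRNOG00000011292), the partner chain of collagen I, was at 5152 CPM (5136 to 5167) with A83-01, 9614 CPM (9596 to 9632) with TBX18 alone and 11479 CPM (11454 to 11504) with GFP. It was 1.87-fold lower with A83-01 than with TBX18 alone (log2 ratio -0.90, -0.91 to -0.89). Col3a1 (ENSRNOG00000003357), the collagen III chain, was at 7267 CPM (7248 to 7285) with A83-01, 11695 CPM (11675 to 11715) with TBX18 alone and 12052 CPM (12027 to 12078) with GFP. It was 1.61-fold lower with A83-01 than with TBX18 alone (log2 ratio -0.69, -0.69 to -0.68). Against GFP, the log2 ratios with A83-01 were -1.13 for Col1a1, -1.16 for Col1a2 and -0.73 for Col3a1. Those of TBX18 alone against GFP were -0.17, -0.26 and -0.04, and both sets share the GFP library.

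The collagens also changed place among all transcripts of a library. Col1a1 ranked 2 among listed genes with TBX18 alone and 6 with A83-01, Col1a2 ranked 5 and 19, and Col3a1 ranked 3 and 8. The 3 transcripts made up 3.62% of stromal UMIs with TBX18 alone and 2.004% with A83-01, against 4.02% with GFP. Within this sum, Col3a1 took 36.3% with A83-01, 32.3% with TBX18 alone and 29.99% with GFP, while Col1a1 took 38.0%, 41.1% and 41.5%. The mixture thus held more collagen III transcript relative to collagen I in the A83-01 library. At day 3, stromal cells by the same rule had 4650 CPM of Col1a1 with TBX18 and 5148 CPM with GFP. Those tables were deposited in another unit and with other filters, and no ratio across days is drawn.

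The difference was spread over the cells. The median stromal cell had 7264 CPM of Col1a1 with A83-01, 14277 CPM with TBX18 alone and 16043 CPM with GFP. With A83-01, 98.6% of cells lay below the Col1a1 median of TBX18 alone, and 43.7% lay below its 5th percentile of 6856 CPM. For Col1a2 the shares were 97.9% and 46.7%, and for Col3a1 92.9% and 23.3%. In the other direction, 5.79% of cells with TBX18 alone lay below the Col1a1 median of the A83-01 library. The distributions therefore overlapped at their edges and were displaced over most of their range.

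**Figure D2:**
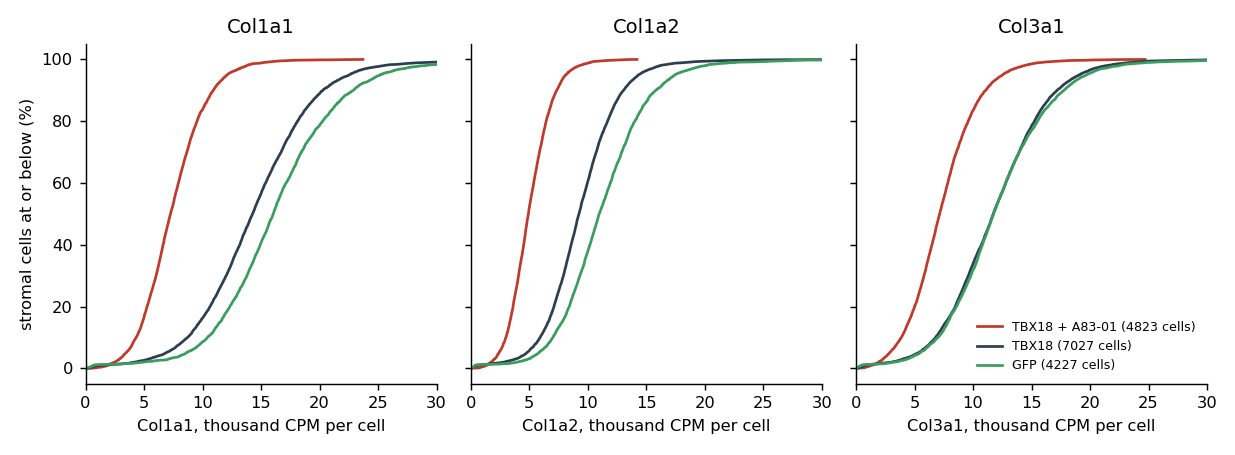
Cumulative share of stromal cells (y axis, %) at or below a given CPM per cell (x axis, scaled down by 1000) for Col1a1, Col1a2 and Col3a1 in the 3 libraries of day 14. The A83-01 curve lies left of the others at its median and at both quartiles, with medians of 7264, 4925 and 7145 CPM against 14277, 9244 and 11730 CPM with TBX18 alone.

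Depth did not separate the libraries in the way that collagens did. Among cells under 12000 UMIs, Col1a1 was at 6410 CPM in 674 cells with A83-01 and at 12683 CPM in 1430 cells with TBX18 alone. Between 12000 and 18000 UMIs the values were 7441 and 14429 CPM, and from 18000 UMIs on they were 7988 and 15842 CPM. Col1a1 was higher in deeper cells of both libraries, and the gap between the libraries was as large in each range. Col3a1 went the other way with depth, from 7736 to 6956 CPM with A83-01 and from 12514 to 10912 CPM with TBX18 alone.

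Because the rule sets a floor under S, the collagens were also read in cells taken without any condition on them. Of cells with M under 5000 CPM, 4839 with A83-01 and 6933 with TBX18 alone, the log2 ratio of Col1a1 was -0.97. All but 55 and 40 of them also passed the rule, so this set could give little other than the stromal value. In cells with M more than 10 times S, a set selected for low collagen, Col1a1 was at 54.4 CPM in 2153 cells with A83-01 and at 422 CPM in 990 cells with TBX18 alone. Of these cells, 245 had 0 UMIs of the 3 collagens with A83-01 and 0 did with TBX18 alone. Summed collagens there were 0.820% of the stromal level with A83-01 and 2.69% with TBX18 alone. Free RNA was not measured apart from cells, and its part in the stromal values was not tested.

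Clusters within each library showed how even the difference was. Stromal cells of each library were clustered alone, without the 6 genes of the rule and the virus features, and the clusters were left unnamed. Among the 8 clusters of at least 50 cells with A83-01, Col1a1 ranged from 5660 to 8785 CPM. The 8 clusters with TBX18 alone ranged from 2981 to 16882 CPM. The lowest of them, with 72 cells, stood apart from the next at 9127 CPM. With it, the ranges of Col1a1 and Col1a2 overlapped between the libraries. Without it, a choice made after its level was seen, those of Col1a1 did not overlap. Those of Col1a2 then did not either, at 3648 to 5712 CPM with A83-01 against 6273 to 10550 CPM. The ranges of Col3a1 overlapped even so, since 1 cluster with TBX18 alone lay at 7305 CPM and the highest with A83-01 at 8903 CPM. These genes also entered the rule. The GFP library likewise had a cluster low in collagen, with 52 cells at 485 CPM of Col1a1.

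A cluster of 432 cells with A83-01 had the lowest collagens of that library, at 5660 CPM of Col1a1 and 3745 CPM of Col3a1. A cluster of 964 cells had 8386 CPM and 8903 CPM of them. Col3a1 thus varied more among the A83-01 clusters than Col1a1 did. In 106 cells with A83-01 and 189 cells with TBX18 alone, clusters carried M of 3773 and 7986 CPM, against 264 to 592 CPM in the other large clusters of both libraries. Their Col1a1 was 8673 and 12972 CPM. Whether these are doublets was not tested.

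**Figure D3:**
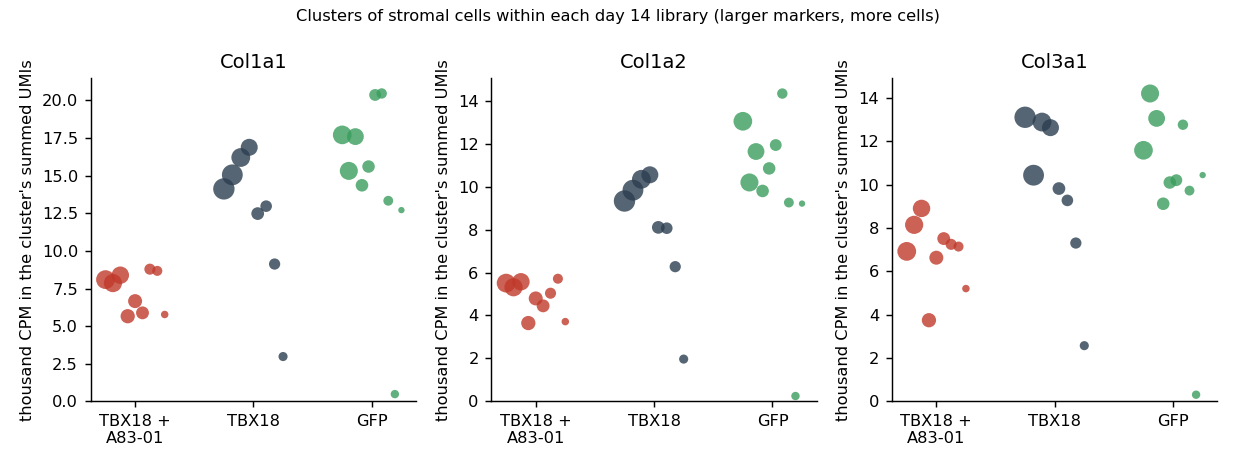
CPM of Col1a1, Col1a2 and Col3a1 (y axes, scaled down by 1000) in the summed UMIs of each cluster of stromal cells, by library (x axis); each point is a cluster, and larger points hold more cells. For Col1a1, A83-01 clusters of at least 50 cells lie between 5660 and 8785 CPM, and those of TBX18 alone lie between 9127 and 16882 CPM apart from the 72-cell cluster at 2981 CPM.

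Sarcomere transcripts were low beside collagens in stromal cells of every library, which the rule itself requires. Its limit on M rises with S, whose median was 19499 CPM with A83-01 and 35769 CPM with TBX18 alone. The rule thus admitted higher M with TBX18 alone, and its part in the differences below was not tested. Of the 3 genes, Tnnt2 differed most between the cultures compared. Tnnt2 was at 242 CPM (239 to 246) with A83-01, 458 CPM (455 to 462) with TBX18 alone and 570 CPM (564 to 575) with GFP. It was 1.89-fold lower with A83-01 than with TBX18 alone (log2 ratio -0.92, -0.94 to -0.90). Actc1 was at 150, 171 and 356 CPM and Myh6 at 117, 137 and 363 CPM in the same order, with log2 ratios of -0.19 and -0.23 between the first and second. Tnnt2 thus stood apart from the other sarcomere genes, although all 3 entered the rule.

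In the myocyte class, where M was more than 2 times S, Tnnt2 made up 30.7% of M with A83-01 and 39.0% with TBX18 alone. In stromal cells it made up 47.6% and 59.8%. These shares come from genes that the rule used, and the part of free RNA in them was not tested. Tnnt2 was found in 54.0% of stromal cells with A83-01 and 68.9% with TBX18 alone after each cell had been thinned to 5000 UMIs, and in 85.6% and 91.7% without thinning. Shallower cells left out of thinned shares numbered 0 with A83-01 and 4 with TBX18 alone.

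The transgene was sparse in stromal cells of both cultures. hTBX18 gave 79 UMIs with A83-01 (0.955 CPM, 0.756 to 1.19) and 136 UMIs with TBX18 alone (1.19 CPM, 0.995 to 1.403). The log2 ratio was -0.31 (-0.73 to 0.10), so a difference was not detectable at this depth. ZsGFP was at 1.34 and 1.11 CPM, with a log2 ratio of 0.28 (-0.10 to 0.66). The myocyte class of the same libraries held 6.94 and 9.10 CPM of hTBX18. In the GFP library, 3 counts in stromal cells correspond to 0.0427 CPM.

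A UMI of hTBX18 was found in 1.20% of stromal cells with A83-01 and in 1.39% with TBX18 alone. Cells with a UMI of hTBX18 or ZsGFP numbered 118 and 157. Col1a1 in these was 8837 CPM with A83-01 and 15146 CPM with TBX18 alone, against 7592 and 14843 CPM in stromal cells without such a UMI. Their M was 797 and 1941 CPM, against 501 and 736 CPM. Collagen was thus lower with A83-01 both in cells with such a UMI and in cells lacking it, although cells lacking it may still carry the virus. Whether the UMIs came from the stromal cells themselves, from free RNA or from doublets with myocytes was not tested.

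Across all genes, more were lower than higher with A83-01. Counts of stromal cells were summed per library, and 5320 genes reached an average of 20 CPM over both libraries. A gene was called at a 2-fold difference on log2 ratios with 0.5 CPM added. Of these genes, 131 (2.46%) were at least 2-fold higher with A83-01 than with TBX18 alone and 357 (6.71%) at least 2-fold lower. The median log2 ratio was -0.10, and 5% of genes lay below -1.15 and 5% above 0.73. None of the 3 collagens reached the 2-fold mark, and all lay in the lower part of this spread.

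The lower side also held the larger differences. At 4-fold, 16 genes were higher and 89 lower, and at 16-fold 1 was higher and 15 lower. Genes called lower made up 10.3% of stromal UMIs with TBX18 alone and 3.81% with A83-01. Genes called higher made up 1.51% and 4.02%. Among the 170 genes that averaged 1000 CPM or more, 6 were higher and 7 lower.

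**Figure D4:**
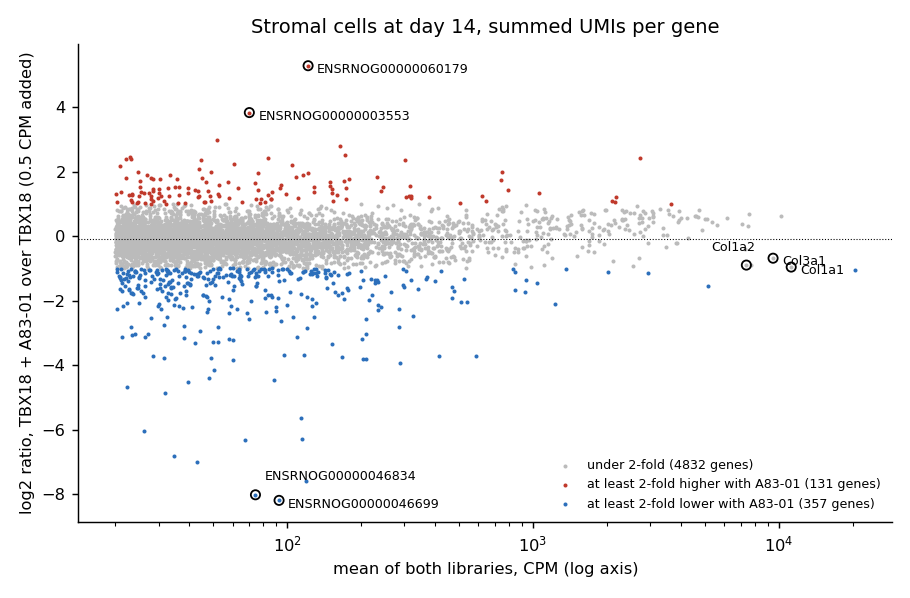
Log2 ratio of A83-01 over TBX18 alone (y axis, 0.5 CPM added) against the mean of both libraries (x axis, CPM, log axis) for 5320 genes in summed stromal cells; the dotted line is the median of -0.10. The 131 genes at least 2-fold higher are red and the 357 at least 2-fold lower are blue, with the collagens and 4 IDs circled.

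The same reading was made for the pairs that include GFP. Stromal cells with A83-01 had 178 of 5134 genes (3.47%) at least 2-fold higher than with GFP and 206 (4.01%) at least 2-fold lower. Those with TBX18 alone had 139 of 5261 (2.64%) higher and 31 (0.589%) lower. In the myocyte class, A83-01 against TBX18 alone gave 37 of 4590 genes (0.806%) higher and 342 (7.45%) lower, with a median log2 ratio of -0.36. These comparisons share libraries, and whether they differ was not tested.

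Genes could be named only by ID, and 4 were taken by their ratio: the 2 highest and the 2 lowest among genes called. Their values are descriptions, since the ratio chose them. ENSRNOG00000060179 was at 238 CPM (234 to 241) with A83-01, 5.62 CPM (5.19 to 6.07) with TBX18 alone and 15.2 CPM (14.3 to 16.1) with GFP. It was 42.3-fold higher with A83-01 than with TBX18 alone (39.1 to 45.8). Thinned to 5000 UMIs, 57.0% of stromal cells had a UMI of it with A83-01 and 2.48% with TBX18 alone, and 83.1% and 5.96% had one without thinning. It was thus widespread in the A83-01 library rather than held by a few cells, with 33.3% of its UMIs in the 10% of cells richest in it.

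ENSRNOG00000003553 was at 132 CPM (129 to 134) with A83-01, 8.79 CPM (8.25 to 9.35) with TBX18 alone and 2.08 CPM (1.76 to 2.45) with GFP. It was 15.0-fold higher with A83-01 than with TBX18 alone (14.0 to 16.0). The GFP library lay above TBX18 alone for the first of these IDs and below it for the second. In the A83-01 library, 71.2% of cells with a UMI of ENSRNOG00000060179 also had one of ENSRNOG00000003553, against 52.9% of cells without it, at median depths of 16645 and 15937 UMIs.

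ENSRNOG00000046834 gave 6 UMIs in stromal cells with A83-01 (0.0726 CPM, 0.0266 to 0.158), 149 CPM (146 to 151) with TBX18 alone and 0.470 CPM (0.324 to 0.660) with GFP. Its log2 ratio between the first and second was -11.00 (-12.45 to -9.88). ENSRNOG00000046699 gave 11 UMIs with A83-01 (0.133 CPM, 0.0664 to 0.238), 185 CPM (183 to 188) with TBX18 alone and 0.0997 CPM (0.0401 to 0.205) with GFP, a log2 ratio of -10.44 (-11.45 to -9.60). The TBX18 library was the single high one of the 3 for both. With A83-01, ENSRNOG00000046834 was at 0.286 CPM in cells with M more than 10 times S, above its stromal level. Whether the few stromal UMIs came from free RNA was not tested. With so few UMIs, the log2 ratio gives no exact size of the difference.

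These transcripts were uneven among the cells that had them. With TBX18 alone, ENSRNOG00000046834 had a UMI in 52.6% of stromal cells and ENSRNOG00000046699 in 30.7%, or in 34.4% and 20.52% after thinning. The richest 10% of cells held 54.0% of the UMIs of the first and 86.3% of those of the second. Of cells with a UMI of the first, 46.5% had one of the second, against 13.1% of cells without it. Over the TBX18 clusters of at least 50 cells, the first ranged from 37.9 to 429 CPM and the second from 23.1 to 1116 CPM. Both were highest in a cluster of 167 cells, whose Col1a1, at 9127 CPM, was the second lowest of that library. This depended on how finely the cells were clustered. At resolution 1 in place of 0.5, both were highest in a cluster of 864 cells, at 498 and 934 CPM. Its Col1a1 was 14031 CPM, so the pairing with low Col1a1 did not hold there. In the A83-01 library, a cluster of 33 cells had 4.74 CPM of the first and 12.7 CPM of the second, together with 440 CPM of ENSRNOG00000060179. All stromal cells of that library gave only 6 UMIs of the first and 11 of the second, so these levels rest on few UMIs.

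**Figure D5:**
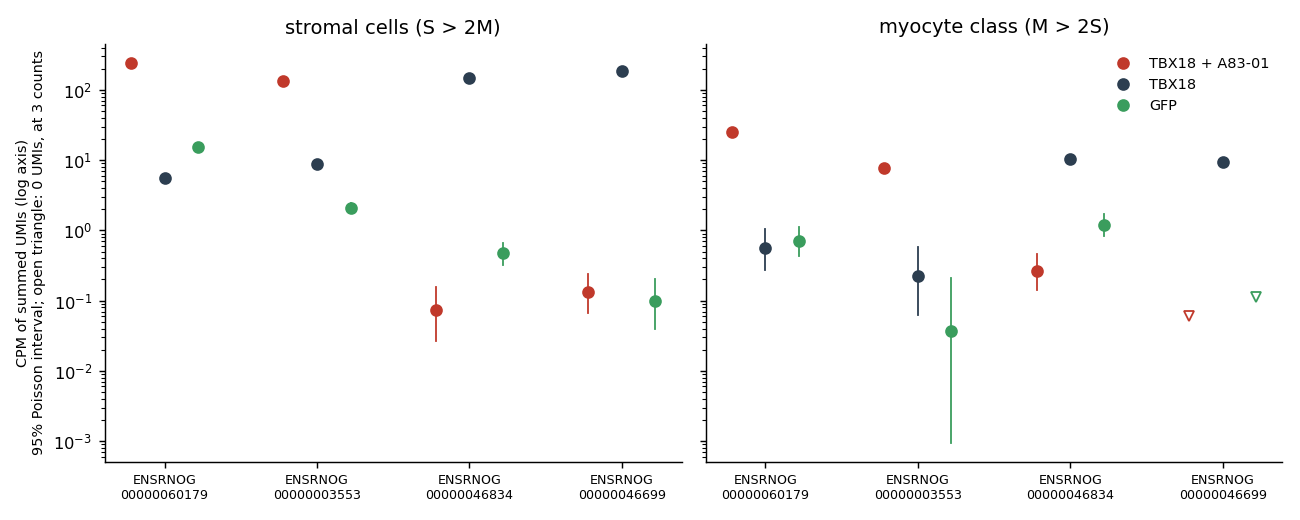
CPM of summed UMIs (y axis, log axis) of 4 IDs (x axis) in stromal cells (left) and the myocyte class (right) of the 3 libraries of day 14, with 95% Poisson intervals; open triangles mark 0 UMIs, drawn at 3 counts. Reading from the left, the first pair of IDs is highest with A83-01, at 238 and 132 CPM in stromal cells, and the other pair with TBX18 alone, at 149 and 185 CPM.

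The same IDs were read in the myocyte class, which the choice did not use but which shares the culture and its free RNA. There ENSRNOG00000060179 was at 25.01 CPM with A83-01 and 0.569 CPM with TBX18 alone, and ENSRNOG00000003553 at 7.76 and 0.227 CPM. The values with TBX18 alone rest on 10 UMIs (0.273 to 1.05 CPM) and 4 UMIs (0.0620 to 0.582 CPM). ENSRNOG00000046834 was at 0.265 and 10.3 CPM, and ENSRNOG00000046699 at 0 UMIs and 9.27 CPM, where 3 counts with A83-01 correspond to 0.0612 CPM. After thinning, ENSRNOG00000060179 had a UMI in 6.72% of myocyte-class cells with A83-01, and ENSRNOG00000046834 in 3.77% of those with TBX18 alone. All 4 IDs thus went in the same direction in both classes at levels under those of stromal cells, apart from ENSRNOG00000046834 with A83-01. Cells high in both sums, with S and M of at least 5000 CPM, made up 7.46% of the A83-01 library and 4.38% of the TBX18 library. Of these, 211 and 33 fell in the myocyte class, and their part in its values was not tested.

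Stromal cells with A83-01 also had slightly fewer genes per cell. The median was 3673 genes with A83-01, 3809 with TBX18 alone and 3617 with GFP. After thinning to 5000 UMIs the medians were 1829, 1971 and 1834 genes. At equal depth the TBX18 library was thus the high one, and the other two lay within a few genes of each other.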

How the data were processed

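Single-cell RNA was captured with a droplet-based 3' kit, per the labels' protocols. Partek, STAR 2.7.8a and the build Rnor_6.0 are named in the submitters' processing notes, with no role given. Values of day 14 were deposited by the authors on a log2 scale, as CPM plus 1 in each cell, and those of day 3 as estimated counts, judging from the values. In each cell of day 14, the commonest value above 0 was set to 1 UMI, and at least 99.66% of values in each library then came out whole within 0.05. The deposited cells of day 14 ended at 33983 UMIs and 5597 genes, so an upper limit had been set before deposit.

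UMIs were summed over the stromal cells of each library and scaled by their total. Ratios over all genes used a pseudocount of 0.5 CPM, and those of single genes none. Ratio intervals are exact given the total count. Cells were clustered with scanpy 1.11.5 and leidenalg 0.10.2 at resolution 0.5, and at resolution 1 where stated. No doublets were removed; as an alternative, cells in the top 6% of the Scrublet score of their library were left out. Scripts were tested on simulated data. The members and lists were chosen with earlier results of these data known. The 36 planned gene lists, of 614 symbols, and filters on markers of endothelial cells, leukocytes and dividing cells could not be applied without gene names. The planned rule for named genes took the highest and lowest log2 ratios, by the interval end nearest 0, among genes with a symbol, together with list members; without symbols, only the 2 highest and 2 lowest IDs by that measure, the 6 genes of the rule and the virus features were named. With 1 library per group, no test was run.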

Additional observations from a re-analysis of the deposited data

Results flagged for a closer look

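Col1a2 was lower with A83-01 than with TBX18 alone in stromal cells (log2 ratio -0.90) and higher in the myocyte class (log2 ratio 0.12), so the directions were opposite. In that class 41.9% of cells had a UMI of Col1a2 with A83-01 and 95.5% with TBX18 alone, and cells with both S and M of at least 5000 CPM numbered 211 and 33. In cells with M more than 10 times S, which were 2153 and 990 of the 2455 and 1087 cells of that class, Col1a2 was at 39.2 CPM with A83-01 and 210 CPM with TBX18 alone. The opposite direction was absent in these cells, but S includes Col1a2, so its level there follows in part from how they were selected. Which cells of the class gave the opposite direction was not tested. Actc1 was likewise lower in stromal cells (-0.19) and higher in the myocyte class (0.34), and so was Myh6 (-0.23 and 0.19). Each class had 1 library per culture, and these differences between the classes were not tested.

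The human TBX18 transcript was also found in cells that fell in neither class. It was at 3.48 CPM in 340 such cells with A83-01 (27 UMIs) and at 5.21 CPM in 223 cells with TBX18 alone (26 UMIs), against 0 UMIs in those of the GFP library. In the summed UMIs of these cells, M was 16862 and 18289 CPM and S 14185 and 19675 CPM. Such sums do not show whether each cell carried both kinds of marker.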

How the results depend on the processing

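Under 14 alternatives, the counts of 131 higher and 357 lower genes moved by over 1.5 times where the threshold or the set of genes changed. With no minimum level they were 477 and 1144, with a minimum mean of 100 CPM 42 and 107, and with a fold of 1.5 they were 402 and 848. Over the other 11 alternatives they lay between 112 and 160 and between 296 and 382. Median-of-ratios scaling moved the median log2 ratio over genes from -0.10 to 0, which that scaling does by construction. The collagens kept their direction under the 10 alternatives that could move them, with log2 ratios from -0.99 to -0.86 for Col1a1, from -0.92 to -0.80 for Col1a2 and from -0.71 to -0.58 for Col3a1. The log2 ratio of ZsGFP, whose interval holds 0, ranged from -0.26 to 0.38, and that of hTBX18 from -0.52 to -0.21. The share of stromal cells lay between 60.9% and 64.8% with A83-01 and between 81.1% and 85.9% with TBX18 alone under other cut-offs. Leaving out cells under 5000 CPM of S, and cells with M of at least 2000 CPM, were chosen after seeing the data. Scrublet's own threshold marked 0 cells with TBX18 alone, so it could not serve as a filter there, and whether it had worked was not checked. The filters on marker genes were not run. No paired analysis was possible because each group has 1 library. Precision is limited by the single culture per group, and for the transgene by the few UMIs.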
